A study of Mus musculus with 8 samples.

Results

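The genes of 8 hormone-like proteins that muscle is known to secrete, the myokines, were followed at the RNA level in cell types of mouse skeletal muscle. They were Fndc5, Metrnl, Ostn, Il15, Bdnf, Fgf21, Angptl4 and Fstl1. They were chosen by name. All 8 were found among the 36048 genes of the deposited gene table, and 6 of the 8 passed the filter for low values that 16700 genes passed. The question was whether muscle fibres hold more of each RNA than the cells around them. Total RNA of 3 populations was sequenced: endothelial cells (EC, 3 libraries), which line the vessels, satellite cells (SC, 2 libraries, numbered 1 and 3), the stem cells of muscle, and single muscle fibres (SMF, 3 libraries), the contractile cells. Each EC or SC library held about 100000 cells of hindlimb muscle, isolated by FACS, and each fibre library 100 hand-picked intact fibres of the extensor digitorum longus, a fast muscle, after 3 h of standing. Strain, age, sex, genotype and sorting markers were each not given in the sources used here, and no treatment is named. Muscle of origin and way of isolation therefore differed together with the population, and their parts cannot be told apart. Since the labels name no animal for any replicate, a p-value here reflects the spread among the 8 libraries alone, and that spread may be technical.

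Myokines are proteins or peptides that contracting muscle can release and that act on the muscle itself or on distant tissues. Several were described first as exercise-responsive or stress-responsive products of muscle, and their RNA or protein is also known from other tissues such as liver, fat, brain and heart. An RNA level in a cell type shows neither how much protein is secreted nor how much a whole muscle makes. In bulk libraries, fewer cells that carry a transcript and less transcript in each cell cannot be told apart.

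Values are FPKM (fragments per kilobase, scaled by the library's total), a measure scaled by length that allows genes to be compared. The aligned bases came to 298 to 368 Mb in EC, 278 and 313 Mb in SC and 525 to 581 Mb in SMF. For a 1 kb transcript, 1 read pair thus equals 0.272 to 0.360 FPKM in sorted cells and 0.172 to 0.190 FPKM in fibres. The 10 most abundant genes took 63.7% to 78.9% of the summed FPKM of a library. Tuba1b, a tubulin gene named here after its values were seen, stood at 2.34, 0.818 and 0 FPKM in SMF replicates 1 to 3. It was low in all fibre libraries and called lower there than in EC and SC. A 0 may be a gene too low for the depth, so zeros are given here as "listed at 0". The markers of each labelled population were highest in its own libraries. Summed FPKM over 10 endothelial markers was at least 1326.5 in each EC library and at most 25.7 elsewhere. Over 9 satellite cell markers it was 867 and 885 in SC and at most 33.0 elsewhere, and over 12 fibre markers at least 37345 in SMF and at most 332 elsewhere. Markers of other cell types were present too. Those of pericytes and smooth muscle summed to 302 to 747 in EC, 264 and 326 in SC and 29.2 to 30.6 in SMF. Erythroid markers summed to 270 to 582, 63.9 and 113, and 11.6 to 52.7. Fibroblast and fibro-adipogenic markers summed to 41.9 to 124, 466 and 467, and 43.3 to 115. The part of such cells was not tested. A gene was called when limma gave an adjusted p (Benjamini-Hochberg over 16700 genes) under 0.05 for the difference in log2(FPKM + 1), a scale that understates differences between low values.

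Promoter windows, reaching from 250 bases before to 50 bases after an annotated start, were found for 5 of the 8 members in the RefSeq table of GRCm38 (mm10), 11 windows in all because Bdnf has several starts. Those of Fndc5, Metrnl and Fstl1 are shown since they stand for 3 of the patterns met below: above EC in fibres, no called difference, and lowest in fibres. Each is written 5′ to 3′ on the plus strand, and capitals mark the GC box letters GGGCGG and the E box letters CANNTG, searched on both strands.
Fndc5 promoter, chr4:129136749-129137048: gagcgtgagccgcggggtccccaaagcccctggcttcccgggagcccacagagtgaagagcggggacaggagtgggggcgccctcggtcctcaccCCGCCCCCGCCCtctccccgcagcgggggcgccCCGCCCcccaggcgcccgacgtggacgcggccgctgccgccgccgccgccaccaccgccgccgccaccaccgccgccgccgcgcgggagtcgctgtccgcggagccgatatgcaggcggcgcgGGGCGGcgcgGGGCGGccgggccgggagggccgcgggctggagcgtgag
Metrnl promoter, chr11:121702177-121702476: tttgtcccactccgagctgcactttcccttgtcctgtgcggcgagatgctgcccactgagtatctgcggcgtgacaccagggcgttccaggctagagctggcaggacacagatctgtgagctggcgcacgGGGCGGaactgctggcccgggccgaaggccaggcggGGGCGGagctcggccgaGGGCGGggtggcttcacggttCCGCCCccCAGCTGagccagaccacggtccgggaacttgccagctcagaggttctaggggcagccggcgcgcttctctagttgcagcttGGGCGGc
Fstl1 promoter, chr16:37776805-37777104: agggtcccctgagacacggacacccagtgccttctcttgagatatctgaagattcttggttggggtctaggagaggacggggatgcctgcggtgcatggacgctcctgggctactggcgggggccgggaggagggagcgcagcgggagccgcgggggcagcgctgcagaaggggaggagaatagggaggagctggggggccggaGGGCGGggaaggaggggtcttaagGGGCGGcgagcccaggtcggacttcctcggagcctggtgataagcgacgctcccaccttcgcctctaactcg
The Fndc5 window was 82.3% G or C, a value above 99.6% of the 32851 windows of the same length in the table. It held 5 GC box matches and no E box match, the letters that myogenic factors such as MyoD can bind. Metrnl had 5 GC box matches and 1 E box of the form CAGCTG in a window of 68% G or C, and Fstl1 had 2 GC box matches and no E box at 66.7%. Among all windows, 35.7% held a GC box match, 72.3% an E box match and 16.3% the form CAGCTG. The TATA box letters TATAAA were found in 13.6% of all windows and, among the members, in that of Fgf21, 28 bases before its start. The element TCAAGGTCA of oestrogen-related receptors was in 0.42% of all windows and in none of the 11 windows of the members. A match of letters is a description of the sequence and not a bound site.

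Fibres held the highest RNA level of none of the 6 tested members by a call against both sorted populations. Across all genes, 7.12% were called higher in SMF than in both EC and SC, 17.5% higher in SC than in both others and 15.2% higher in EC than in both others. By the same rule Il15 was highest in EC and Bdnf in SC. Il15 reached 1 FPKM only in the 3 EC libraries and Bdnf only in the 2 SC libraries. Each therefore passed the filter through the group where it is highest, so that call is a description. With no filter both kept these places. Angptl4 and Fstl1 were lower in SMF than in both, as were 43% of all genes. Il15 was also lower in SC than in both others and Fndc5 lower in EC than in both others, as were 1.44% and 4.02% of all genes. Against EC, 4 of the 6 members were called, 1 higher in SMF and 3 lower (median log2 difference -0.61). Of all genes 66.3% were called there, 10.8% higher and 55.5% lower, with a median of -0.85. Against SC, 4 of 6 were called, 1 higher and 3 lower (median -0.88). Of all genes 65.1% were called there, 8.57% higher and 56.5% lower, with a median of -0.93. Between SC and EC, 3 of 6 were called, Fndc5 and Bdnf higher in SC and Il15 lower (median 0.82), where 37.7% of all genes were called, 21.2% higher and 16.4% lower, with a median of 0.11. FPKM is relative to all fragments, so these medians are themselves a property of the scaling: they were -0.19 and -0.21 after median-of-ratios scaling. Of all genes called between SMF and EC, 16.3% were higher in SMF, which became 43.9% after median-of-ratios scaling, 39.9% after upper-quartile scaling and 27.2% when the 50 most abundant genes of each group were left out of the library totals. Between SMF and SC the share was 13.2% and became 45.1%, 35.0% and 30.8%. Between SC and EC it was 56.3% higher in SC and became 39.0% under the last of these. After median-of-ratios scaling 1 member, Fndc5, was called higher in SMF than in both, beside 18.8% of all genes, and likewise under upper-quartile scaling beside 16% of all genes. With the most abundant genes left out, none was, beside 12.2%. After these scalings in the same order, 9.4%, 12.9% and 9.23% of all genes were highest in SC and 13.2%, 12.2% and 16.5% highest in EC, while 16.8%, 20.7% and 24.5% were lower in SMF than in both. Bdnf and Il15 kept those places except after median-of-ratios scaling.

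**Figure D1:**
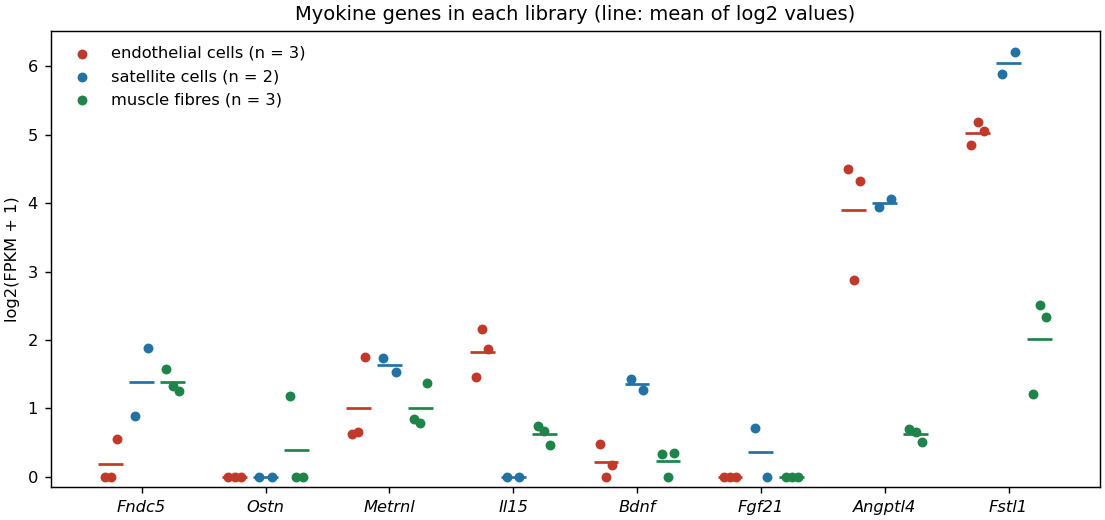
Level of each myokine gene as log2(FPKM + 1) (y axis) in every library, with genes on the x axis, points coloured by population and a line at the mean of the log2 values. Angptl4 and Fstl1 are high in both sorted populations and low in fibres, Il15 is highest in endothelial cells, Bdnf in satellite cells, and Ostn is above 0 in 1 fibre library.

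The summed FPKM of the 8 genes was 52.0, 45.6 and 56.8 in EC replicates 1 to 3, 78.1 and 94.4 in SC replicates 1 and 3, and 6.88, 8.08 and 8.12 in SMF replicates 1 to 3. The fibre sums lay below those of both sorted populations without overlap. Most of this gap came from Angptl4 and Fstl1: without them the sums were 2.68 to 5.58 in EC, 5.52 and 5.98 in SC and 2.82 to 4.94 in SMF, and those of EC and SMF overlapped. Between 4 and 7 of the 8 genes were above 0 in a library, and the library with 7 was SMF replicate 1.

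Fndc5 (chromosome 4, 129136870 to 129144593, GRCm38) encodes the membrane protein from which the exercise hormone irisin is cut. It stood at 1.97, 1.51 and 1.39 FPKM in SMF replicates 1 to 3, at 0.854 and 2.68 in SC replicates 1 and 3, while EC replicates 1 to 3 had 0, 0 and 0.461. All fibre libraries lay above all EC libraries, as for 11.9% of all genes, and within the range of the SC libraries. The log2 difference was 1.20 against EC (SE 0.28, limma adjusted p = 0.00636). Against SC it was -0.000019 (SE 0.32, adjusted p = 1), with a 95% interval from -0.74 to 0.74 that leaves room for differences in either direction. SC also exceeded EC (log2 1.20, SE 0.32, adjusted p = 0.0202), a call that was lost without SC replicate 3 (log2 0.71, adjusted p = 0.11), without EC replicate 1 (1.11, adjusted p = 0.0536) and without EC replicate 2 (1.11, adjusted p = 0.0501). The place of fibres relative to SC depended on the scaling: the difference was 1.015 after median-of-ratios scaling (adjusted p = 0.0125), 0.80 after upper-quartile scaling (adjusted p = 0.0373) and 0.63 with the most abundant genes left out of the totals (adjusted p = 0.12). In fibres the mean of Fndc5 exceeded that of 70.9% of the genes above 0. No Fndc5 transcript is in the incomplete transcript list, so its read pairs and the limit of a 0 in EC were not computed.

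Ostn (chromosome 16, 27307641 to 27351209) encodes musclin, also called osteocrin, a small secreted peptide that resembles natriuretic peptides and binds their clearance receptor. It stood at 1.25 FPKM in SMF replicate 1 and was listed at 0 in the other 7 libraries, so fibres were the only population with a value above 0, and by 1 library alone. That value corresponds to 10.4 read pairs on the listed transcript of 1423 bases. A count of 0 allows up to 3 read pairs, or 0.370 and 0.401 FPKM in SMF replicates 2 and 3, and 0.573 to 0.759 FPKM in the sorted libraries, for counting error only. The fibre libraries thus differed among themselves by more than counting error. Ostn did not pass the filter. When every gene was tested, its log2 difference was 0.39 against EC (SE 0.29, adjusted p = 0.428) and 0.39 against SC (SE 0.33, adjusted p = 0.361). SMF replicate 1 also had the highest summed FPKM of 4 tenocyte markers, 17.1 against 1.24 and 2.45 in the other fibre libraries and 3.49 to 9.63 in the sorted ones, and the part of such cells in the Ostn value was not tested.

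Metrnl (chromosome 11, 121702427 to 121717389) encodes meteorin-like, a secreted factor of muscle and fat linked to browning and to macrophage responses. It stood at 0.788, 0.722 and 1.59 FPKM in SMF, 2.34 and 1.88 in SC and 0.539, 0.578 and 2.35 in EC, in the order of the replicates. The fibre libraries lay below both SC libraries, as for 67% of all genes, and overlapped those of EC. Neither difference was called: -0.01 against EC (95% interval -0.77 to 0.75, limma adjusted p = 0.986) and -0.64 against SC (-1.48 to 0.21, adjusted p = 0.161). EC replicate 3 decided part of this picture. Without it, Metrnl was called higher in SC than in both others (log2 0.99 over EC, adjusted p = 0.0199, and -0.64 for SMF minus SC, adjusted p = 0.0395). EC replicate 3 also had the highest sum of leukocyte markers among the EC libraries (80.1 FPKM against 60.3 and 14.8) and of fibroblast and fibro-adipogenic markers (124 against 115 and 41.9), and their part in the result was not tested. Of 3 listed transcripts only ENSMUST00000036742 was above 0, at 2.40 to 11.7 read pairs a library.

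Il15 (chromosome 8, 82331624 to 82403252) encodes interleukin 15, a cytokine that supports natural killer and memory T cells and was proposed as an anabolic muscle factor. It stood at 1.76, 3.46 and 2.64 FPKM in EC, at 0.663, 0.588 and 0.382 in SMF, and was listed at 0 in both SC libraries. All EC libraries lay above all fibre libraries, the pattern of 58.9% of all genes. The log2 difference of SMF minus EC was -1.21 (SE 0.20, adjusted p = 0.00107) and that of SC minus EC -1.83 (SE 0.23, adjusted p = 0.000563). The first was lost after median-of-ratios scaling (-0.47, adjusted p = 0.0916). Leukocyte markers summed to 60.3, 14.8 and 80.1 FPKM in EC, 30.5 and 35.7 in SC and 2.06 to 5.33 in SMF, and their part in the Il15 levels was not tested.

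Fibres exceeded SC in Il15 by 0.62 (SE 0.23, adjusted p = 0.0409), but over the alternatives this adjusted p ranged up to 0.154 and the call was lost in 9 of 19. It was lost without any 1 of the SC or SMF libraries, without EC replicate 3 (adjusted p = 0.0556), with no filter (0.0856), in the TPM table (0.154) and with the replicate number as a block (0.11). The fibre values rest on 7.35, 6.40 and 3.83 read pairs, and a count of 0 allows up to 0.502 and 0.566 FPKM in SC replicates 1 and 3. SMF replicates 1 and 2 lay above both limits and SMF replicate 3 below both.

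Bdnf (chromosome 2, 109674700 to 109727043) encodes brain-derived neurotrophic factor, which acts on neurons through the receptor TrkB and is induced in contracting muscle. It stood at 1.69 and 1.41 FPKM in SC, at 0.387, 0 and 0.129 in EC and at 0.263, 0 and 0.274 in SMF. Both SC libraries lay above all others. Against EC alone, that holds for 31.5% of all genes, and against SMF alone for 67%. SC libraries all below those of EC, seen for Il15, held for 23.2%. The log2 difference of SMF minus SC was -1.12 (SE 0.22, adjusted p = 0.00274) and that of SC minus EC 1.13 (SE 0.22, adjusted p = 0.00537), while fibres and EC were not called apart (0.01, 95% interval -0.45 to 0.47, adjusted p = 0.963). The call against fibres was lost after median-of-ratios scaling (-0.59, adjusted p = 0.0686). A summed FPKM of 8.34 and 8.51 over 6 Schwann cell and nerve markers in SC, against 1.52 to 3.40 elsewhere, moved with Bdnf, though Ngfr, a member of that list with 3.14 and 5.56 FPKM in SC, made up much of it. Its part in the result was not tested.

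The transcripts of Bdnf share a coding exon and differ in where they start. Of 9 listed transcripts 3 were above 0. The SC libraries used ENSMUST00000111045, which starts at 109693563 on the plus strand, at 2.09 and 1.84 FPKM (25.9 and 20.4 read pairs), and this transcript was listed at 0 in all EC and SMF libraries. In SMF replicate 3 the value lay on ENSMUST00000111050, which starts at 109692436, at 0.329 FPKM (6.85 read pairs). The list of transcripts is incomplete, so shares were not computed, and with 1 fibre library no comparison of starts was made.

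Fgf21 (chromosome 7, 45613890 to 45615490) encodes a hormone of fasting and mitochondrial stress that is made mainly by the liver and can be induced in muscle. It stood at 0.639 FPKM in SC replicate 1, equal to 1.86 read pairs, and was listed at 0 in the other 7 libraries, all 3 fibre libraries included. A count of 0 allows up to 0.555 to 0.614 FPKM in fibres, 0.877 to 1.08 in EC and 1.16 in SC replicate 3. No population could therefore be placed above another at this depth, and the gene did not pass the filter.

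Angptl4 (chromosome 17, 33774900 to 33781575) encodes angiopoietin-like 4, a secreted inhibitor of lipoprotein lipase that rises with fatty acids and fasting. It stood at 21.6, 6.30 and 19.0 FPKM in EC, at 14.4 and 15.7 in SC and at 0.626, 0.570 and 0.426 in SMF. The fibre libraries lay far below all sorted libraries. SMF libraries lay all below those of EC for 58.9% of all genes and below those of SC for 67%. The log2 difference was -3.28 against EC (SE 0.39, limma adjusted p = 0.000171) and -3.38 against SC (SE 0.44, adjusted p = 0.000311), and both calls held under all 19 alternatives, at -4.45 to -2.42 and -4.58 to -2.37. SC and EC overlapped (0.11, 95% interval -0.92 to 1.13, adjusted p = 0.878). EC replicate 2 stood apart at 6.30 FPKM, and without it the SC minus EC difference became -0.41 (adjusted p = 0.0691). In that library summed fibroblast and fibro-adipogenic markers were 41.9 FPKM against 115 and 124, and pericyte and smooth muscle markers 302 against 616 and 747. Their part in the Angptl4 level was not tested. Adipocyte markers summed to at most 1.92 FPKM in any library and were all listed at 0 in fibres. Of its 2 listed transcripts, the longer, ENSMUST00000002360, carried 128 to 209 read pairs in the sorted libraries other than EC replicate 2, where it carried 58.9, and 7.35 to 11.9 in fibres.

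Fstl1 (chromosome 16, 37777055 to 37836516) encodes follistatin-like 1, a secreted glycoprotein related to SPARC that is studied as a muscle-derived and heart-derived protective factor. It was the most abundant member in every population. It stood at 58.2 and 72.7 FPKM in SC, at 27.7, 35.3 and 32.2 in EC and at 1.32, 4.69 and 4.06 in SMF. The 3 populations did not overlap, with SC above EC and EC above fibres. SMF libraries lay all below those of EC for 58.9% of all genes and below those of SC for 67%. SC libraries lay all above those of EC for 31.5%. The log2 difference was -4.03 against SC (SE 0.37, adjusted p = 5.11e-05) and -3.01 against EC (SE 0.33, adjusted p = 0.000103), and both calls held under all 19 alternatives, at -4.42 to -2.64 and -3.38 to -1.795.

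The step from EC to SC in Fstl1 was not called (1.02, SE 0.37, adjusted p = 0.0639). It was called in 4 of the 19 alternatives. These were the TPM table, 2 groups in the fit, the replicate number as a block and the fit without SMF replicate 1. In that last fit the difference stayed at 1.02 (adjusted p = 0.00647), since leaving out a fibre library changes the spread but not this estimate. SMF replicate 1 was the fibre library with the lowest Fstl1 value. Its fibroblast and fibro-adipogenic markers summed to 43.3 FPKM against 115 and 103 in the other fibre libraries. The same markers summed to 467 and 466 FPKM in SC and to 41.9 to 124 in EC. Fstl1 is known from fibroblasts, and the part of such cells was not tested. In SC the mean of Fstl1 exceeded that of 97.8% of the genes above 0, and in fibres that of 81.0%.

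**Figure D2:**
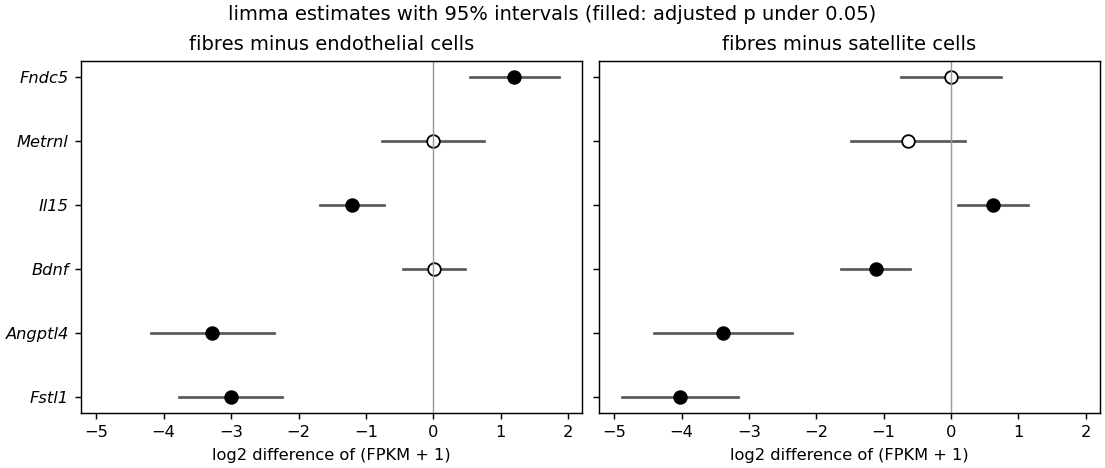
Difference in log2(FPKM + 1) between fibres and endothelial cells (left) or satellite cells (right) for the 6 tested genes, with points at the limma estimate and lines for the 95% interval. Filled points have an adjusted p under 0.05. Among these, Fndc5 lies right of 0 on the left panel and Il15 on the right panel, and Angptl4 and Fstl1 lie left of 0 on both.

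**Figure D3:**
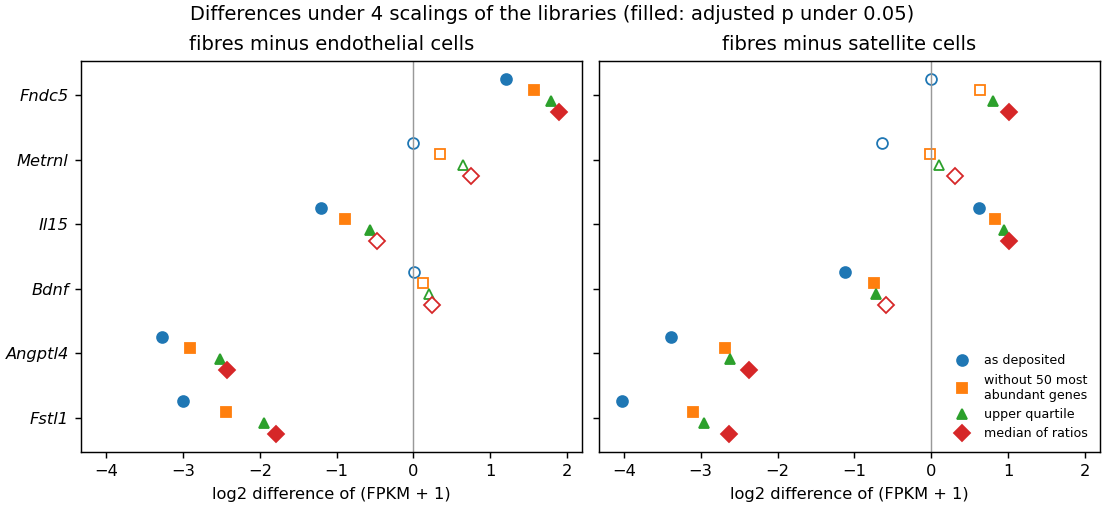
The same differences in log2(FPKM + 1) (x axis) under the deposited scaling and 3 others, with a symbol and colour for each scaling and filled symbols for an adjusted p under 0.05. The other scalings move the points to the right, by enough to call Fndc5 higher in fibres than in satellite cells under 2 of the 3, while Angptl4 and Fstl1 stay below 0 throughout.

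The genes nearest to each member in log2(FPKM + 1) over the 8 libraries were found among all tested genes by Euclidean distance. Slc38a3, a glutamine transporter gene, lay nearest to Fndc5 (distance 0.58), with means of 0.111, 1.55 and 1.78 FPKM in EC, SC and SMF, followed by Arhgap20 (0.72). Meis3 (0.45) and the oxytocin receptor gene Oxtr (0.47) lay nearest to Bdnf, and Ccdc85c (0.67) and Plxna4 (0.85) to Il15. Spry4, an inhibitor of growth factor signalling, lay nearest to Angptl4 (0.77), at 16.1, 15.5 and 0.470 FPKM, followed by Fam71a (1.03). The laminin gene Lamc1 lay nearest to Fstl1 (0.91), at 33.2, 64.8 and 3.05 FPKM, followed by the kinase gene Sik1 (1.24). Pgpep1 (0.77) and RP24-510K1.8 (0.79) lay nearest to Metrnl. The libraries share their populations and their scaling, so these distances describe likeness of level and pattern and nothing of shared control.

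Of 25 receptors and binding partners of the members, 21 were tested. Against EC, 1 was higher in SMF, 15 were lower and 5 were not called (median log2 -1.57, against -0.85 over all genes, of which 10.8% were higher and 55.5% lower). Against SC, none was higher, 12 were lower and 9 were not called (median -0.88, against -0.93 over all genes, of which 8.57% were higher and 56.5% lower). None was higher than in both and 8 were lower, beside 7.12% and 43% of all genes. Under each of the 3 other scalings 1 partner, Sort1, was higher than in both and 3 were lower. Of all genes, 18.8%, 16% and 12.2% were higher and 16.8%, 20.7% and 24.5% lower, in the order used above. Among the tested partners, Npr1, Gpihbp1, Il2rg, Kit, Itgb3, Fgfr3 and Ntrk2 reached 1 FPKM in EC alone, and Fgfr4 and Ngfr in SC alone. They passed the filter through that group. The gene higher in SMF than in EC was Sort1, the sorting receptor of proneurotrophins, at 6.23, 6.34 and 6.37 FPKM in SMF, 2.88, 1.71 and 4.28 in EC and 5.28 and 7.34 in SC (log2 0.94 over EC, adjusted p = 0.00999, and 0.015 over SC, adjusted p = 0.974). Its difference from SC was 1.41 after median-of-ratios scaling (adjusted p = 0.0012), 1.11 after upper-quartile scaling (adjusted p = 0.00428) and 0.92 with the most abundant genes left out (adjusted p = 0.0197).

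The natriuretic peptide receptors, which musclin can engage through the clearance receptor, were low in fibres. Npr3, the clearance receptor gene, stood at 4.86, 3.84 and 4.69 FPKM in EC, 1.58 and 1.70 in SC and 0.488, 0.669 and 0.201 in SMF, and was called lower in SMF than in both (log2 -1.92, adjusted p = 2.56e-05, and -0.88, adjusted p = 0.00365). The second call was lost under each of the 3 other scalings (-0.15, -0.32 and -0.386). Npr1, the guanylyl cyclase receptor gene, stood at 36.4, 42.5 and 33.4 in EC and did not exceed 0.168 elsewhere. Npr2 stood at 11.1, 5.98 and 11.6 in EC, 7.41 and 7.10 in SC and 2.60, 2.30 and 2.43 in SMF. Its difference from SC was -1.26 (adjusted p = 0.00303), a call lost under each of the 3 other scalings (0.024, -0.26 and -0.42).

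Lipoprotein lipase, the target of Angptl4, and its anchor had their highest levels in EC. Lpl stood at 65.5, 56.1 and 48.4 FPKM in EC, 12.8 and 10.9 in SC and 4.58, 2.90 and 4.20 in SMF (log2 of SMF minus EC -3.57, adjusted p = 1.94e-06). Gpihbp1, the capillary protein that carries the lipase, stood at 87.2, 70.5 and 82.6 in EC and at most 0.553 elsewhere. The call of Lpl in SMF minus SC (-1.40, limma adjusted p = 0.000654) was lost under each of the 3 other scalings (-0.022, -0.33 and -0.49). That of Gpihbp1 (-0.44, adjusted p = 0.0446) was lost in 13 of the 19 alternatives. Lmf1, a lipase maturation factor gene, did not pass the filter.

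For irisin, the integrin genes Itgav and Itgb5 stood at 2.10, 2.30 and 1.69 and at 3.75, 6.78 and 7.08 FPKM in SMF. Itgav was higher in SC, at 7.21 and 7.22, than in SMF (log2 of SMF minus SC -1.45, adjusted p = 9.28e-05, lost after median-of-ratios scaling at -0.19). Itgb5 stood at 12.5, 8.60 and 14.7 in EC. The call of its lower level in SMF (-0.92, adjusted p = 0.0164) was lost under each of the other scalings (0.35, 0.20 and -0.31). Itgb3 stood at 1.19 to 1.80 in EC and at most 0.515 elsewhere, while Itgb1, the most abundant integrin gene of the list, stood at 17.9, 20.6 and 19.5 in SMF, 121, 123 and 140 in EC and 87.8 and 99.1 in SC.

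Kit, named as a receptor of meteorin-like, stood at 2.64, 1.18 and 5.05 FPKM in EC and at most 0.379 elsewhere. Il2rg, the gamma chain of the interleukin 15 receptor, stood at 9.05, 8.04 and 5.45 in EC and at most 0.0705 elsewhere, while Il2rb did not pass the filter. Il15ra, the chain that presents the cytokine, stood at 2.60, 1.89 and 2.51 in EC, 0.544 and 1.60 in SC and 1.35, 1.58 and 0.907 in SMF, and no comparison with fibres was called. Ntrk2, which encodes TrkB, stood at 1.59, 0.607 and 1.82 in EC and 0.0474 to 0.0953 in SMF. The SC values of Ngfr, the low-affinity neurotrophin receptor gene, are given above, and it reached at most 0.289 elsewhere. Fgfr1, a receptor of FGF21, stood at 46.9 and 46.3 in SC and at 1.76, 1.51 and 2.21 in SMF (log2 -4.08, adjusted p = 1.97e-06), and Fgfr4 stood at 95.8 and 107 in SC and at most 0.0756 elsewhere. Fgfr3 was highest in EC, at 1.35 to 2.91, Fgfr2 did not pass the filter, and the co-receptor gene Klb did not exceed 0.373 in any library. Dip2a, reported to bind follistatin-like 1, stood at 3.29, 3.05 and 3.20 in EC, 1.31 and 1.45 in SC and 0.0332 to 0.126 in SMF. Bmpr2 and Tlr4, also reported as partners of that protein, were lower in SMF than in both. The call of Bmpr2 against SC was lost under each of the 3 other scalings (0.053, -0.26 and -0.43).

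**Figure D4:**
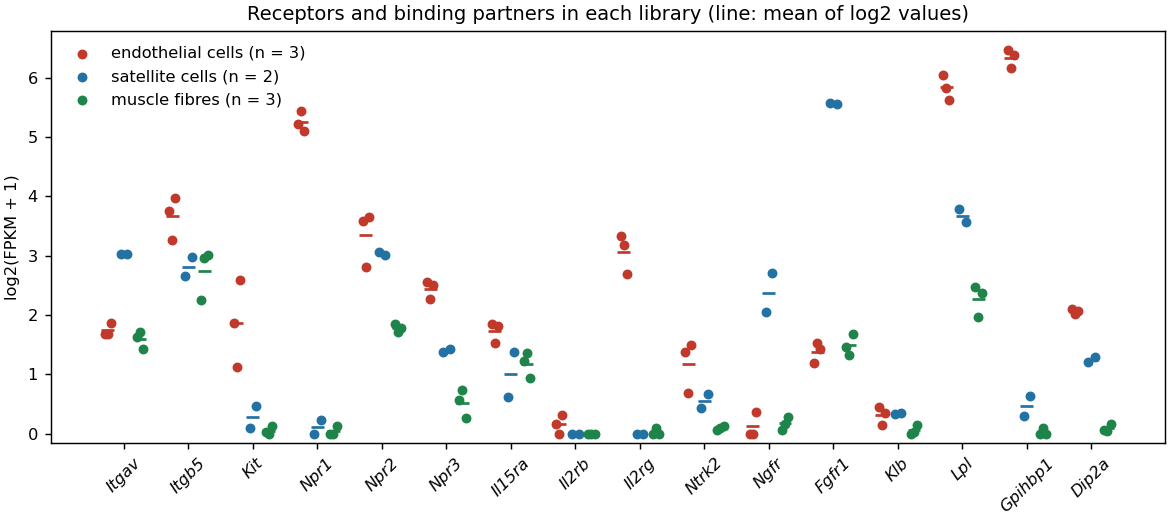
Level of receptors and binding partners of the myokines as log2(FPKM + 1) (y axis) in every library, with genes on the x axis, points coloured by population and a line at the mean of the log2 values. Npr1, Gpihbp1 and Lpl are highest in endothelial cells and Fgfr1 and Ngfr in satellite cells. None of the 16 genes shown is called higher in fibres than in both other populations, but Il2rb and Klb were not tested. Sort1, the partner called higher in fibres than in endothelial cells, is not among the genes shown.

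Among regulators known to act on these genes, 3 of 19 tested were higher in SMF than in both sorted populations and 8 were lower, beside 7.12% and 43% of all genes. The 3 were Ppargc1a, Esrra and Mef2c. Ppargc1a, the coactivator that drives Fndc5 in exercise, stood at 6.04, 5.41 and 5.86 FPKM in SMF, 1.25 and 1.10 in SC and 0.514, 0.0996 and 0.223 in EC (log2 2.42 over EC, adjusted p = 5.21e-06, and 1.64 over SC, adjusted p = 0.000104). Esrra, the oestrogen-related receptor with which it acts, stood at 4.24, 3.10 and 3.59 in SMF, 0.525 and 2.01 in SC and 1.73, 0.827 and 1.47 in EC (log2 1.00 and 1.11, adjusted p = 0.013 and 0.0139). The call over SC was lost without SC replicate 1 (0.62, adjusted p = 0.0957). Mef2c stood at 17.4, 23.1 and 14.7 in SMF, 0.335 and 0.683 in SC and 5.27, 8.57 and 9.28 in EC, and its call over EC was lost in the TPM table (0.52, adjusted p = 0.294). The 3 most abundant regulators lower in SMF were Nr3c1, the glucocorticoid receptor gene, at 8.57 FPKM on average in SMF against 32.6 in EC and 21.0 in SC, Hif1a and Akt1. The counts were 6 higher with 4 lower after median-of-ratios and upper-quartile scaling and 6 with 6 without the most abundant genes. Of all genes, 18.8%, 16% and 12.2% were higher and 16.8%, 20.7% and 24.5% lower in the same order. Against SC, the call of Nr3c1 was lost under each of the 3 scalings (0.29, -0.038 and -0.22). That of Hif1a was lost after median-of-ratios (-0.69, adjusted p = 0.198) and upper-quartile scaling (-1.001, adjusted p = 0.0637).

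Other secreted factors reported from muscle included some with their highest RNA level in fibres. Of 37 tested, 5 were higher in SMF than in both and 14 lower, beside 7.12% and 43% of all genes. The counts became 8 and 9 after median-of-ratios scaling, 7 and 9 after upper-quartile scaling and 6 and 9 without the most abundant genes. Of all genes, 18.8%, 16% and 12.2% were then higher and 16.8%, 20.7% and 24.5% lower. In the TPM table, where 35 were tested, they were 3 and 15. The 5 were Mstn, Ntf5, Vegfa, Vegfb and Nampt, and Mstn is named here after its values were seen. Mstn encodes myostatin, the brake on muscle growth, and stood at 18.7, 20.2 and 18.8 FPKM in SMF, 0.340 and 0.253 in SC and 0 in all EC libraries (log2 of SMF minus SC 3.97, SE 0.13, adjusted p = 7.86e-07). Mstn reached 1 FPKM in fibres alone, so it passed the filter through them. Vegfa, the vascular growth factor gene, stood at 43.7, 30.4 and 33.3 in SMF, 27.8 and 11.6 in SC and 4.11, 5.26 and 4.29 in EC. Its call over SC (0.93, adjusted p = 0.0408) was lost without SC replicate 3 (0.34, adjusted p = 0.29), and in 9 other of the 19 alternatives. Vegfb stood at 22.1, 17.9 and 22.6 in SMF, 6.15 and 9.06 in SC and 2.33, 2.34 and 3.23 in EC (log2 1.36 over SC, adjusted p = 0.000743). Nampt, an enzyme of NAD synthesis that is also secreted, stood at 20.6, 17.6 and 17.2 in SMF, 7.20 and 6.37 in SC and 10.3, 14.0 and 10.4 in EC (1.32 over SC, adjusted p = 0.000398, and 0.65 over EC, adjusted p = 0.0082). The call over EC was lost in the TPM table (0.54, adjusted p = 0.0702). The most abundant of the 14 lower genes were Sparcl1, Sparc and the chemokine gene Cxcl1, at 743, 260 and 25.2 FPKM on average in EC, 20.5, 203 and 117 in SC and 9.34, 11.3 and 11.6 in SMF. After median-of-ratios and upper-quartile scaling, Cxcl1 turned to 0.30 and 0.14 against EC and Sparcl1 to 0.46 and 0.14 against SC, and neither call held with the most abundant genes left out (-0.40 and -0.044).

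Of the close relatives of the members, 26 were in the table. Of 15 tested, 2 were higher in SMF than in both, Ntf5 and Smoc2, and 6 were lower, beside 7.12% and 43% of all genes. Ntf5, the neurotrophin gene that shares the receptor TrkB with Bdnf, stood at 2.46, 2.39 and 1.96 FPKM in SMF, 0 and 0.352 in SC and 0 in all EC libraries (log2 1.49 over SC, SE 0.19, adjusted p = 0.000302). Its fibre libraries lay above all sorted libraries. SMF libraries lay all above those of EC for 11.9% of all genes and above those of SC for 10.8%. Ntf5 reached 1 FPKM in fibres alone, so it passed the filter through them. Bdnf, as given above, was higher in SC than in SMF. Smoc2, a matrix protein of the SPARC family, stood at 3.79, 5.09 and 4.76 in SMF, 1.36 and 1.18 in SC and 0.911, 0 and 1.28 in EC, and its call over SC (1.28, adjusted p = 0.01) was lost without SC replicate 3 (1.225, adjusted p = 0.0691) and with a pseudocount of 0.1 (1.75, adjusted p = 0.163). Of 8 convertases, proteases and partners that process secreted precursors, 7 were tested. None was higher in SMF than in both and 5 were lower, beside 7.12% and 43% of all genes. Under each of the 3 other scalings 1 of the 7, the sorting receptor gene Sort1, was higher than in both and 4 were lower. Of all genes, 18.8%, 16% and 12.2% were higher and 16.8%, 20.7% and 24.5% lower, in the order used above. Furin stood at 1.25, 1.24 and 1.13 FPKM in SMF against 6.61, 4.51 and 8.31 in EC and 6.28 and 6.32 in SC (log2 of SMF minus EC and minus SC both -1.73, adjusted p = 0.000118 and 0.000261). Adam10 averaged 1.03 FPKM in SMF, 26.7 in EC and 10.5 in SC. Mmp2 averaged 48.5 in SC, 3.21 in EC and 1.62 in SMF, and its call against EC was lost under each of the other scalings (0.29, 0.17 and -0.23). Of the relatives lower in SMF, the most abundant beside Sparc and Sparcl1 was Fndc3b, a paralog of Fndc5, which stood at 0.533 to 0.690 in SMF, 6.58 to 8.56 in EC and 16.4 and 17.4 in SC.

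The authors' deposited table gives mean TPM for each population and a specificity score whose formula is not stated. In the authors' deposited table the SMF mean was the highest of the 3 for Ostn alone, at 0.302 TPM with 0 in EC and SC. Fndc5 had 1.10 TPM in SMF and 1.38 in SC in the authors' deposited table, Fstl1 3.08 in SMF and 67.2 in SC, and Angptl4 0.393 in SMF, 14.9 in EC and 15.4 in SC.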

How the data were processed

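RNA of 8 libraries (3 EC, 2 SC and 3 SMF, grouped by sample title) was analysed from 10 ng of RNA each, made into random-primed, ribosome-depleted stranded libraries and sequenced from both ends (50 bp), per the labels. The labels say that RIN values of 8 to 10 were used, with 1 unnamed sample below. HISAT2, StringTie, Trimmomatic, FastQC and bedtools were used on mm10, per the submitters' processing notes, with versions, settings and use of strand not given in the sources used here. The deposited gene table holds FPKM by the authors. The deposited locus table holds TPM by the authors, with the authors' mean TPM and a specificity score per the file headers. The deposited transcript table holds FPKM and read coverage, with 25348 transcript numbers absent from it. FPKM divided by coverage gave the aligned bases of a library, and coverage times length divided by 100 gave read pairs.

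The fit was limma 3.58.1 (R 4.3.3) on log2(FPKM + 1), with a mean-variance trend, 1 mean for each group, all 8 libraries and no covariate. Genes reaching 1 FPKM in 2 or more libraries were tested, two-sided, with Benjamini-Hochberg adjustment over 16700 genes. Scaling alternatives and those that leave out a library kept the same genes. On data simulated for SMF minus EC with these 16700 genes, 32%, 88%, 86% and 96% of 50 changed genes each were recovered at log2 differences of 1, 2, 3 and 4. Only these genes were changed there, while 66.3% of all genes were called between SMF and EC in the data. The adjustment depends on that share, so the recovered shares do not carry over to the data. Members, lists, markers and alternatives were chosen with earlier results of these data known. Named list genes are, for each list, up to 3 with the highest mean called higher in SMF than in both groups and up to 3 called lower, and all partners of the members. Nearest genes leave out predicted genes. Promoter sequences are from RefSeq (GRCm38.p6). Overlap with other genes was looked up in RefSeq: Ostn and Fstl1 overlap noncoding genes, whose reads may not be told apart.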

Additional observations from a re-analysis of the deposited data

How the results depend on the processing

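Counts over all genes followed the scaling. After scaling by median of ratios, by the upper quartile and by totals that leave out abundant genes, limma called 3753, 3089 and 2611 genes higher in SMF than in SC and 4568, 5738 and 5863 lower. For SMF against EC the first pair gave 4160 and 3782 higher and 5307 and 5685 lower, and the third gave 2100 higher in SC than EC. The number of members called higher in SMF than in both groups was 0, and 1 after median-of-ratios or upper-quartile scaling. The number called lower in SMF than in both was 2, Angptl4 and Fstl1, under all 19 alternatives. The number called higher in SC than in both was 1, then 0 after median-of-ratios scaling, 2 in the TPM table, with 2 groups in the fit or with the replicate block, and 1 to 2 without each library in turn. The number called lower in SC than in both was 1, then 0 with no filter, in the TPM table and with the replicate block, and 0 to 1 without each library in turn. The number called higher in EC than in both was 1, and 0 after median-of-ratios scaling. The number called lower in EC than in both was 1, then 0 with 2 groups in the fit, and 0 to 1 without each library in turn.

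Differences that were not called changed sign in places. Metrnl in SMF minus EC was 0.071 and 0.013 with pseudocounts of 0.1 and 0.5, 0.74, 0.64 and 0.34 under the 3 scalings, and -0.20 to 0.36 without each library in turn. In SMF minus SC it was 0.31 and 0.097 after the first and second scaling. Fndc5 in SMF minus SC was 0.0675 and 0.024 with the pseudocounts, 1.015, 0.80 and 0.63 under the scalings, and -0.4954 to 0.4953 without each library in turn. Bdnf in SMF minus EC was -0.095 to 0.14 without each library in turn. Angptl4 in SC minus EC was -0.053 after the first scaling and -0.23 after the third, and -0.41 to 0.41 without each library in turn, the lowest without EC replicate 2.

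The list genes were put through the same alternatives after the data had been seen. Called differences of SMF minus EC turned after median-of-ratios and upper-quartile scaling to 0.30 and 0.14 for Cxcl1, 0.35 and 0.20 for Itgb5 and 0.29 and 0.17 for Mmp2, all not called. SMF minus SC turned to 0.46 and 0.14 for Sparcl1 and, after median-of-ratios scaling, to 0.053 for Bmpr2, 0.024 for Npr2 and 0.29 for Nr3c1. Causes were not tested.

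Deviations from the group means were correlated across genes between libraries of the same number. The correlations were -0.018, 0.014 and 0.0031 for EC and SMF, 0.091 and 0.038 for EC and SC, and -0.049 and -0.058 for SC and SMF. With so few libraries in a group, these values cannot show whether a number marks a shared animal or day. With the replicate block, Fstl1 was called higher in SC than in EC (1.18, adjusted p = 0.0227), Il15 was no longer called between SMF and SC (0.53, adjusted p = 0.11), Fndc5 in SMF minus SC was 0.060 and Angptl4 in SC minus EC was -0.14. The depth limits Ostn, Fgf21, Il15 in SC and Bdnf in EC and SMF, which rest on few read pairs or none. Fndc5 in EC, listed at 0 in 2 libraries, is near the floor too, with its read pairs not computed.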
